A study of Mus musculus with 12 samples.

Results

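The genes described here carry glucose to lactate or to mitochondrial acetyl-CoA and interconvert the ketone bodies. They are 33 named genes: 2 glucose transporters, 3 enzymes of hexose phosphorylation and isomerisation, 3 phosphofructokinases, 4 regulators of fructose bisphosphate, 8 enzymes of lower glycolysis, 2 lactate dehydrogenases, 3 monocarboxylate transporters with their chaperone, 5 genes of the pyruvate dehydrogenase step and 2 enzymes of ketone body metabolism. All 33 were found by symbol among the 23284 genes of the count table, and 32 of them were among the 14832 genes with enough counts to be tested. The member not tested was Eno1, with 2 counts in all 12 libraries together. The list was chosen with the measured effect of estradiol in wild-type mice in view, where Slc16a3 and Bdh1 were lower with the hormone. For that comparison the members' values are therefore given as a description, without a test.

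The tissue was mandibular condylar fibrocartilage, the fibrous and cartilaginous cover of the jaw joint, taken whole from female C57BL/6 mice at 17 weeks of age. Every mouse had been ovariectomized at 16 weeks and then received placebo or 17β-estradiol (E2) for 1 week, the latter from a 0.01 mg pellet made for 60-day release, so that all groups share the loss of the ovaries. RNA of wild-type (WT) mice and of mice lacking estrogen receptor alpha (ERalphaKO) was enriched for polyadenylated transcripts and sequenced. The 4 groups were WT placebo (2 libraries), WT with E2 (3), ERalphaKO placebo (4) and ERalphaKO with E2 (3). The knockout allele, whether the knockout was in all cells, and whether each library came from a single animal are not given in the sources used here. P-values therefore measure the spread between these libraries, which may in part be technical. The study asked which effects of E2 on this tissue pass through estrogen receptor alpha.

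Glycolysis splits glucose into pyruvate in the cytosol. Chondrocytes live with little oxygen and rely on it heavily, reducing much of the pyruvate to lactate, which leaves the cell with a proton through monocarboxylate transporters. The alternative route takes pyruvate into the mitochondrial pyruvate dehydrogenase complex, which the pyruvate dehydrogenase kinases switch off. Ketone bodies are fuels made mainly in liver: BDH1 interconverts β-hydroxybutyrate and acetoacetate, and OXCT1 activates acetoacetate so that other tissues can burn it.

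Total counts per library ran from 9696434 to 28750636, so that 3 counts, taken as the limit of detection, corresponded to 0.110 to 0.315 CPM (counts per 1000000 of the scaled library total). Values by library are given in the order of the replicate numbers. Esr1, the gene of the targeted receptor, lay between 8.52 and 17.5 CPM in the 5 WT libraries and between 3.65 and 5.78 CPM in the 7 ERalphaKO libraries, without overlap. The cartilage genes Col2a1 (1156 to 14780 CPM) and Acan (620.4 to 1962 CPM), the surface-zone gene Prg4 (66.0 to 390.3 CPM) and the fibrous collagen gene Col1a1 (27000 to 43590 CPM) were present in every library. Markers of other tissues varied widely within groups. The 20 skeletal muscle markers summed to 15.2 and 2748 CPM in the WT placebo libraries, to 250.8 to 1289 CPM in WT with E2, to 21.6 to 6546 CPM in ERalphaKO placebo and to 17.99 to 65.6 CPM in ERalphaKO with E2. Of these markers, 5 were at 0 in some library, among them the fast myosin Myh4 in 8 libraries and Pvalb in 1. The 10 granulocyte markers summed, in the same order of groups, to 73.3 and 895.8, to 3.58 to 1133, to 26.8 to 16870 and to 18.4 to 7260 CPM. Of these 10, 3 were at 0 in some library, among them the defining members Elane in 1 library and Mpo in 2. ERalphaKO placebo replicate 3 was the highest library for both lists. These were bulk samples, in which fewer cells of a type and less RNA per cell cannot be told apart.

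Per kilobase of exon sequence, the most abundant members were Bsg, the chaperone of the monocarboxylate transporters (234.8 CPM per kb, mean of 12 libraries), and Ldha, the muscle-type lactate dehydrogenase subunit (197.3 CPM per kb). Aldoa, the main aldolase, followed with 144.5 CPM per kb, then triosephosphate isomerase Tpi1 with 115.3 and Oxct1 with 72.0 CPM per kb. Slc16a3, which encodes the lactate exporter MCT4, ranked 18 of 33 at 14.2 CPM per kb. The related transporter genes Slc16a1 (MCT1) and Slc16a7 (MCT2) lay lower, at 5.33 and 1.19 CPM per kb. Bdh1 stood at 8.87 CPM per kb. Ldha exceeded the heart-type subunit gene Ldhb, at 16.3 CPM per kb, in this per-length scale. Within groups, the members' standard deviations of log2 CPM had a median of 0.24, from 0.08 for Bsg to 0.71 for Pfkm, against a median of 0.19 over all genes tested.

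Gapdh, among the most highly expressed genes in most tissues, stood at 2.34 CPM per kb, and Eno1, the widely expressed enolase, at 0.00296 CPM per kb. To see how far such values could depend on reads that match several places, each member's longest annotated transcript was cut into windows of 100 bases at steps of 10, and windows that matched a transcript of another gene with at most 2 mismatches were counted. The share was 85.0% for Eno1, 80.5% for Gapdh, 67.6% for the phosphoglycerate kinase gene Pgk1 and 50.4% for Ldhb, and these 4 were the only members over 50%. Gapdh windows matched 137 pseudogenes, the largest number among the members. Eno1 had 1 count in WT E2 replicate 1, 1 in ERalphaKO placebo replicate 4 and 0 elsewhere, all below the limit of detection. Gm5506, which RefSeq gives as another name of Eno1b, a gene that shares sequence with Eno1, read 6.86 to 13.5 CPM. Gpi1 had 42.3%, Pgam1 39.9% and Ldha 27.9% shared windows, whereas Slc16a3, Slc16a1 and Bsg had 0% and Bdh1 4.95%. How reads with several matches were counted is not stated in the labels or notes, so its part in the levels of Gapdh, Eno1, Pgk1, Ldhb, Gpi1, Pgam1 and Ldha was not tested, and these levels are uncertain.

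**Figure D1:**
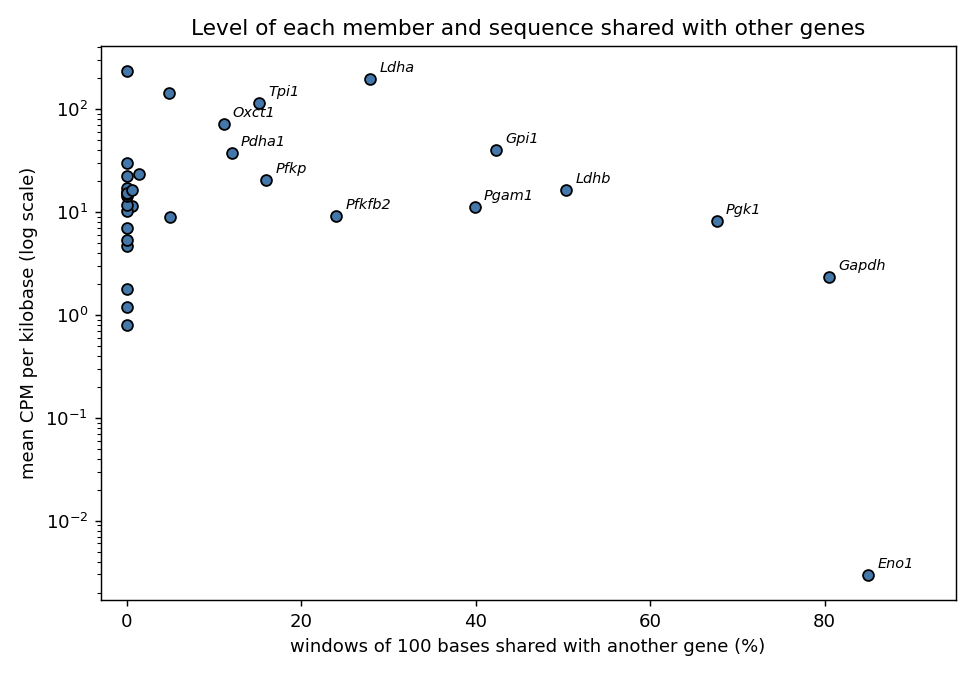
Share of 100-base windows that match a transcript of another gene (horizontal axis, percent) against mean level (vertical axis, CPM per kb on a log scale) for the 33 members, 1 point per gene. Eno1 (85.0%) and Gapdh (80.5%) lie at the right with low levels, while Ldha (27.9%) is among the highest.

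The lactate transporters and Ldha form the end of the route from glucose to lactate. Slc16a3 read 83.7 and 94.8 CPM in the WT placebo libraries and 56.8, 50.5 and 55.3 CPM in WT E2 replicates 1 to 3. In ERalphaKO mice it read 55.7, 60.5, 70.2 and 60.9 CPM with placebo and 56.7, 53.3 and 61.7 CPM with E2. Both WT placebo libraries lay above the other 10, and the ERalphaKO groups overlapped each other. The mean was 89.2 ± 7.89 CPM (SD, n = 2) in WT placebo and 54.2 ± 3.27 CPM (SD, n = 3) in WT with E2, a log2 fold change of -0.72 ± 0.11 (SE). In ERalphaKO mice the log2 fold change with E2 was -0.11 ± 0.09 (edgeR quasi-likelihood adjusted p = 0.991).

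Bsg encodes basigin, which carries MCT1 and MCT4 to the membrane. Its values were 450.9 and 474.8 CPM in WT placebo, 391.5, 387.5 and 432.8 in WT with E2, 353.1, 360.3, 377.3 and 382.3 in ERalphaKO placebo, and 346.3, 391.4 and 391.0 CPM in ERalphaKO with E2. The WT placebo libraries were again the top pair, and the spread was small. Under placebo, Bsg was 0.33 ± 0.09 (SE) log2 units lower in ERalphaKO than in WT, a log2 fold change of -0.33 that did not pass the test (adjusted p = 0.345), although DESeq2 on the same counts gave an adjusted p of 0.00619 (0.00619 to 0.998 over the alternatives tried). Slc16a1 had another order: 17.9 and 25.9 CPM in WT placebo, 15.5, 13.9 and 17.1 in WT with E2, 29.1, 38.7, 33 and 25.9 in ERalphaKO placebo, and 25.5, 13.7 and 27.2 CPM in ERalphaKO with E2. ERalphaKO placebo replicates 1 to 3 exceeded every library of the other groups, and replicate 4 was level with WT placebo replicate 2. ERalphaKO E2 replicate 2 lay beside the WT E2 libraries, below the rest of its own group. The log2 fold change of Slc16a1 with E2 in ERalphaKO was -0.51 ± 0.23 (adjusted p = 0.876), and between genotypes it was 0.53 ± 0.26 under placebo and 0.52 ± 0.25 under E2 (adjusted p = 0.601 and 0.452). Slc16a7, the high-affinity transporter, stayed between 9.78 and 16.5 CPM in all libraries.

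**Figure D2:**
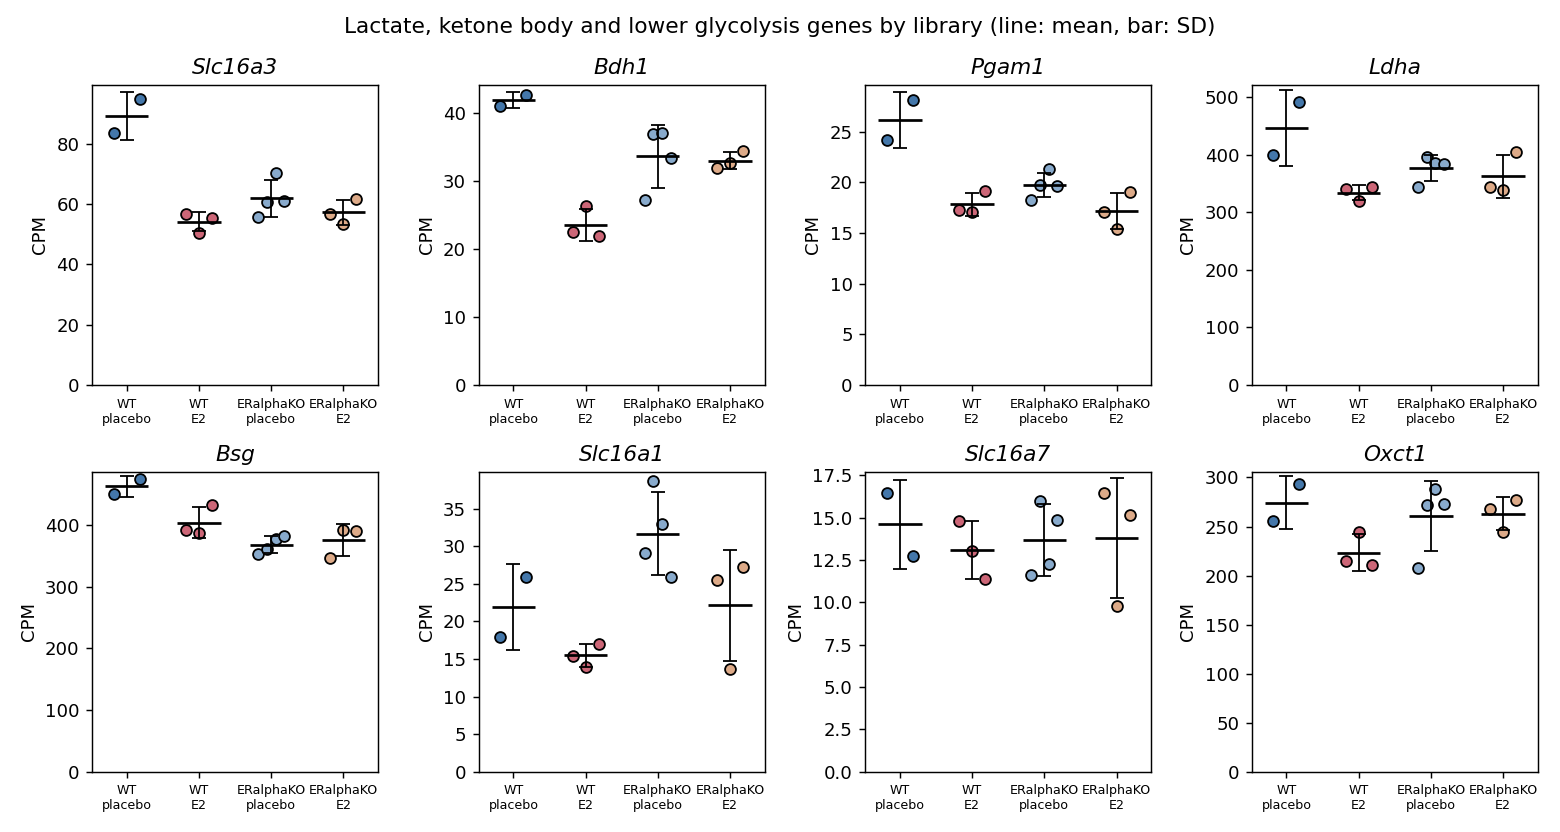
CPM in each of the 12 libraries (vertical axes, starting at 0) for members the results turn on, by group (horizontal axis); each point is 1 library, the line is the group mean and the bar its SD. For Slc16a3 the WT placebo libraries read 83.7 and 94.8 CPM and no other library exceeds 70.2 CPM.

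Ldha, which reduces pyruvate to lactate, read 398.8 and 492.1 CPM in WT placebo and 340.4, 319.1 and 343.0 CPM in WT with E2. It read 343.2, 395.1, 385.2 and 383.2 CPM in ERalphaKO placebo, and 343.2, 337.8 and 405.2 CPM in ERalphaKO with E2. WT placebo replicate 2 was the high library, and replicate 1 lay within the ERalphaKO range. The log2 fold change with E2 was -0.42 ± 0.12 in WT. The difference between the E2 effects of the genotypes was 0.36 ± 0.15 on the log2 scale (adjusted p = 0.706). Ldhb, which favours the reverse reaction, ranged from 14.7 to 40.2 CPM.

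Ketone body metabolism was represented by Bdh1 and Oxct1. Bdh1 read 41.1 and 42.7 CPM in WT placebo and 22.5, 26.3 and 21.9 CPM in WT with E2. In ERalphaKO mice it read 27.2, 36.9, 37.2 and 33.4 CPM with placebo and 31.98, 32.7 and 34.4 CPM with E2. The WT placebo pair was highest and the 3 WT E2 libraries were lowest, with all 7 ERalphaKO libraries in between. The mean was 41.9 ± 1.17 CPM (SD, n = 2) in WT placebo and 23.6 ± 2.39 CPM (SD, n = 3) in WT with E2, a log2 fold change of -0.83 ± 0.13. In ERalphaKO mice the log2 fold change with E2 was -0.03 ± 0.11 (adjusted p = 1); it was 0.02 both without ERalphaKO placebo replicate 2 and without replicate 3. Against WT, ERalphaKO stood at -0.31 ± 0.12 under placebo and at 0.49 ± 0.12 under E2, so the sign differed between treatments. Both comparisons reuse the WT libraries that entered the choice of Bdh1, so this difference in sign is a description only.

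Oxct1, the enzyme of acetoacetate use, did not share that order. Its values were 255.6 and 293.3 CPM in WT placebo, 214.8, 244.7 and 210.8 in WT with E2, 207.9, 272.4, 288.0 and 272.9 in ERalphaKO placebo, and 267.8, 244.4 and 276.8 CPM in ERalphaKO with E2. Of the 7 ERalphaKO libraries, placebo replicate 1 lay below every WT E2 library, E2 replicate 2 within the WT E2 range and the others within the WT placebo range.

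The 250 bases before the transcription start are shown for Slc16a3 and Bdh1, the genes the choice of members turned on, and for Ldha, the most abundant enzyme of the lactate step. They come from RefSeq on mouse build GRCm38.p6, which is not the build of the deposited counts, and run 5′ to 3′. Slc16a3 lies at chr11:120948817-120949066, the first Bdh1 start at chr16:31422047-31422296 and the second at chr16:31428503-31428752. The first Ldha start lies at chr7:46845554-46845803, and the second Ldha start is not shown. All are on the plus strand. Capitals mark ACGTG and GCGTG, the forms of the hypoxia response element core, and GGTCA, the estrogen response element arm, each on either strand.
Slc16a3: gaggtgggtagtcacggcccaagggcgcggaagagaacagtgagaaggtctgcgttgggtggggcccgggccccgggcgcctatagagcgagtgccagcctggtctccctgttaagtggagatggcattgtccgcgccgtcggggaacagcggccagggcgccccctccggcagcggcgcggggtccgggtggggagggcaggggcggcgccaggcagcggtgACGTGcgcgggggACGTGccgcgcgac
Bdh1, first start: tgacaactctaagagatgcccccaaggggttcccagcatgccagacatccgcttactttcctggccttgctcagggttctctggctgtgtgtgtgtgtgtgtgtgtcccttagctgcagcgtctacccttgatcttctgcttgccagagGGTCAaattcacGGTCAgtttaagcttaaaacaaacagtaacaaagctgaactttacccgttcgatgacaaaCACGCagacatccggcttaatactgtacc
Bdh1, second start: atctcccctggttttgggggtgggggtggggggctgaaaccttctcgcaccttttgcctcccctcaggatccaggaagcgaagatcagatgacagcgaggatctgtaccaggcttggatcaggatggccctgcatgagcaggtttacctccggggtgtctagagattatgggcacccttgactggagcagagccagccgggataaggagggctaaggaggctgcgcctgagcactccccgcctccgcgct
Ldha: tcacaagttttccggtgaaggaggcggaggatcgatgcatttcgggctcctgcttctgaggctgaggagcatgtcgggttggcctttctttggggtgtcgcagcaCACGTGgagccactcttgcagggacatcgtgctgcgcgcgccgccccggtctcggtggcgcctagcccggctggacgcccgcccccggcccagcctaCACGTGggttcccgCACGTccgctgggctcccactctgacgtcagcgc
The Slc16a3 promoter held ACGTG at 27 and 14 bases before the start. The first Bdh1 promoter held GGTCA at 101 and 89 bases and GCGTG on the reverse strand at 29 bases, and the second held none of the 3 motifs. The first Ldha promoter held ACGTG on 1 strand or both at 145, 48 and 34 bases. The second Ldha promoter, not shown, held 0 ACGTG, 1 GCGTG and 1 GGTCA. RefSeq promoters of this length were found for 30 of the 33 members (49 promoters), with none for Slc2a3, Slc16a7 and Bsg. ACGTG occurred in 36.7% of them and in 16.6% of all 32851 promoters, and GCGTG in 53.1% against 28.2%. GGTCA occurred in 44.9% against 35.2%. The palindromic estrogen response element, which is GGTCA and its reverse complement 3 bases apart and so counts under both, occurred in 0 of 49 against 0.0639%. Member promoters were also richer in G and C, with a median of 58.8% against 52.4%. A match to these letters is a description of the sequence, not a bound site.

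Lower glycolysis, from the aldolases to the enolases, showed the same top pair in part. Pgam1, the phosphoglycerate mutase, read 24.2 and 28.1 CPM in WT placebo, 17.3, 17.1 and 19.2 in WT with E2, 18.3, 19.8, 21.3 and 19.6 in ERalphaKO placebo, and 17.1, 15.5 and 19.1 CPM in ERalphaKO with E2. Both WT placebo libraries lay above the other 10. The log2 fold change was -0.55 ± 0.12 with E2 in WT, -0.20 ± 0.10 with E2 in ERalphaKO (adjusted p = 0.898) and -0.41 ± 0.11 for ERalphaKO against WT under placebo (adjusted p = 0.361).

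Pgk1 read 20.7 and 18.9 CPM in WT placebo, 13.6, 13.4 and 16.0 in WT with E2, 10.95, 14.4, 17.1 and 14.4 in ERalphaKO placebo, and 11.9, 14.2 and 14.8 CPM in ERalphaKO with E2. Again no other library reached the WT placebo pair. Its log2 fold change was -0.46 ± 0.17 with E2 in WT and -0.47 ± 0.16 for ERalphaKO against WT under placebo (adjusted p = 0.457). Tpi1 read 224.1 and 272.2 CPM in WT placebo, 209.2, 188.4 and 193.1 in WT with E2, 186.8, 197.1, 231.9 and 190.9 in ERalphaKO placebo, and 165.2, 185.2 and 196.3 CPM in ERalphaKO with E2. WT placebo and WT E2 did not overlap, but ERalphaKO placebo replicate 3 exceeded WT placebo replicate 1, and the WT fold change with E2 was -0.33 ± 0.12.

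Aldoa read 349.2 and 502.8 CPM in WT placebo, 379.8, 318.2 and 313.1 in WT with E2, 280.9, 354.3, 714.8 and 335.5 in ERalphaKO placebo, and 289.4, 305.9 and 304.7 CPM in ERalphaKO with E2. The high libraries were ERalphaKO placebo replicate 3 and WT placebo replicate 2, which were also the highest for skeletal muscle markers. Gapdh read 3.23 and 3.66 CPM in WT placebo, 3.71, 4.10 and 4.76 in WT with E2, 3.83, 2.62, 3.76 and 3.34 in ERalphaKO placebo, and 2.59, 4.21 and 2.15 CPM in ERalphaKO with E2. It was the member of this step that was higher with E2 in WT without overlap, at these low levels. Under E2 its log2 fold change between genotypes was -0.51 ± 0.26 (adjusted p = 0.495). Aldoc, the brain-type aldolase, ranged from 3.23 to 7.51 CPM and Eno2, the neuronal enolase, from 19.95 to 42.25 CPM.

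Glucose enters through the facilitative transporters GLUT1, encoded by Slc2a1, and GLUT3, encoded by Slc2a3. Slc2a1 read 41.3 and 49.7 CPM in WT placebo, 35.1, 31.96 and 46.4 in WT with E2, 35.1, 34.8, 31.8 and 33.7 in ERalphaKO placebo, and 32.04, 33.1 and 43.1 CPM in ERalphaKO with E2. The WT placebo pair was above ERalphaKO placebo but overlapped WT with E2. Slc2a3 read 39.8 and 30.6 CPM in WT placebo, 19.0, 29.0 and 27.9 in WT with E2, 24.7, 25.0, 82.4 and 45.5 in ERalphaKO placebo, and 91.1, 34.2 and 39.4 CPM in ERalphaKO with E2. ERalphaKO E2 replicate 1 and ERalphaKO placebo replicate 3, the top pair of libraries for granulocyte markers, stood far above the rest. Under E2 the log2 fold change of Slc2a3 between genotypes was 1.12 ± 0.49 (adjusted p = 0.417). It was 0.54 without ERalphaKO E2 replicate 1 and 0.40 ± 0.31 with the granulocyte marker level in the fit.

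Hexokinases trap glucose in the cell as its phosphate. Hk1 read 133.3 and 126.4 CPM in WT placebo, 116.2, 120.4 and 120.4 in WT with E2, 107.4, 113.0, 109.9 and 110.3 in ERalphaKO placebo, and 93.5, 100.3 and 117.0 CPM in ERalphaKO with E2. The WT placebo pair was highest, and the ERalphaKO libraries lay below the WT E2 range except for E2 replicate 3, which lay within it. Hk1 had log2 fold changes between genotypes of -0.24 ± 0.08 under placebo (adjusted p = 0.462) and -0.20 ± 0.08 under E2 (adjusted p = 0.369). The inducible hexokinase gene Hk2 ranged from 14.7 to 55.7 CPM. Gpi1, the isomerase that follows, read 104.3 and 122.1 CPM in WT placebo, 98.7, 99.6 and 114.5 in WT with E2, 106.2, 97.9, 195.0 and 113.3 in ERalphaKO placebo, and 120.8, 105.1 and 101.1 CPM in ERalphaKO with E2. All groups overlapped, with ERalphaKO placebo replicate 3 far above the others.

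Phosphofructokinase commits sugar to glycolysis, and the bifunctional PFKFB enzymes set the level of its activator. Pfkm, the muscle isoform, read 40.0 and 120.8 CPM in WT placebo, 64.5, 56.4 and 49.2 in WT with E2, 42.7, 62.3, 196.4 and 65.7 in ERalphaKO placebo, and 35.2, 42.3 and 38.2 CPM in ERalphaKO with E2. Its highest libraries, ERalphaKO placebo replicate 3 and WT placebo replicate 2, were also the highest for muscle markers, and WT placebo replicate 1 lay at the other end of the range. The log2 fold change with E2 in ERalphaKO was -1.26 ± 0.51 (adjusted p = 0.848); it was -0.57 without ERalphaKO placebo replicate 3 and -0.20 with the muscle level added to the fit. Pfkl, the liver isoform, ranged from 45.9 to 76.9 CPM and Pfkp, the platelet isoform, from 71.8 to 103.6 CPM.

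Pfkfb3, whose enzyme strongly favours making the activator, read 170.2 and 239.1 CPM in WT placebo, 135.2, 217.0 and 225.9 in WT with E2, 207.2, 111.0, 125.6 and 145.6 in ERalphaKO placebo, and 93.3, 191.1 and 127.6 CPM in ERalphaKO with E2. All 4 groups overlapped. Pfkfb4 read 23.1 and 20.9 CPM in WT placebo, 24.5, 18.6 and 25.5 in WT with E2, 19.2, 16.2, 49.6 and 22.2 in ERalphaKO placebo, and 41.0, 16.4 and 18.7 CPM in ERalphaKO with E2. As with Slc2a3, the high values were in ERalphaKO placebo replicate 3 and ERalphaKO E2 replicate 1. Pfkfb1 was scarce, at 0.939 and 2.05 CPM in WT placebo, 1.71, 1.18 and 1.23 in WT with E2, 1.92, 1.26, 4.03 and 1.53 in ERalphaKO placebo, and 1.08, 1.68 and 1.07 CPM in ERalphaKO with E2. ERalphaKO placebo replicate 3 was high, and the log2 fold change of Pfkfb1 with E2 in ERalphaKO was -0.80 ± 0.44 (adjusted p = 0.916), or -0.31 without that library. Pfkfb2, the fourth gene of the family, ranged from 39.9 to 50.8 CPM.

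At the pyruvate dehydrogenase step, Pdha1, the catalytic subunit gene, read 102.0 and 122.3 CPM in WT placebo, 99.9, 106.2 and 83.2 in WT with E2, 89.3, 113.3, 146.2 and 113.3 in ERalphaKO placebo, and 106.7, 98.5 and 106.3 CPM in ERalphaKO with E2. The groups overlapped, and ERalphaKO placebo replicate 3 was again highest. Among the kinases that switch the complex off, Pdk1 ranged from 78.7 to 109.7 CPM, Pdk2 from 24.9 to 50.6 CPM and Pdk3 from 26.2 to 39.0 CPM. Pdk4, the kinase of fasting and fatty acid use, had the widest range of the 4, from 24.9 to 137.6 CPM, with the highest value in ERalphaKO placebo replicate 3.

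The question of what E2 did in WT mice was the one used to choose the members. There, 2 of 32 members, Slc16a3 and Bdh1, were lower at an adjusted p under 0.05, beside 0.0876% of all genes tested, and 0 were higher, beside 0.371%. In 13 members the WT E2 libraries lay wholly below WT placebo, beside 13.7% of all genes, and in 1, Gapdh, wholly above, beside 13.2%. The members' log2 fold changes ran from -0.83 to 0.28, and 28 of 32 were negative, beside 50.9% of all genes. Their median was -0.26 against -0.0043 over all genes tested. Because the list was chosen with this comparison in view, the calls of Slc16a3 and Bdh1 restate the choice and lend it no support. Outside the threshold, Pgam1 was the nearest member and Ldha the next. By role, 5 of 7 genes of lower glycolysis, all 4 of monocarboxylate transport and all 5 of the pyruvate dehydrogenase step had negative values. The calls of Slc16a3 and Bdh1 were both lost without WT placebo replicate 1 or 2, or without WT E2 replicate 1 or 3, and that of Bdh1 also without ERalphaKO placebo replicate 4 or ERalphaKO E2 replicate 2 or 3. Both were also lost when the fit held the WT libraries alone. Their log2 fold changes were -0.81 to -0.63 for Slc16a3 and -0.92 to -0.78 for Bdh1 over all 12 single omissions.

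In ERalphaKO mice, the same hormone treatment gave no call. By edgeR's quasi-likelihood test with Benjamini-Hochberg adjustment, 0 of 32 members passed, beside 0% of all genes; 2 of 32 had an unadjusted p under 0.05 (Pfkm and Slc16a1), beside 5.70%, and DESeq2 called 0. Pfkm was the 1 member whose E2 libraries lay wholly below placebo, beside 3.09% of all genes, and 0 lay wholly above, beside 2.58%. The members' median log2 fold change was -0.08, against 0 over all genes, and 24 of 32 were negative, beside 49.99% of all genes. A p that misses the threshold does not show that the hormone had no effect on these genes.

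The direct test of whether the E2 effect differed between genotypes shares its libraries with the comparison in WT, so Slc16a3 and Bdh1 are described there without a test. Their differences, ERalphaKO effect minus WT effect, were 0.61 ± 0.14 and 0.80 ± 0.17 on the log2 scale. Among the other members the smallest p-values belonged to Ldha, to Pgam1 with 0.36 ± 0.15 (adjusted p = 0.711), to Pgk1 with 0.40 ± 0.23 (adjusted p = 0.785) and to Bsg with 0.23 ± 0.12 (adjusted p = 0.770). By edgeR 0 of the other 30 members were called, beside 0.0539% of all genes, 2 had an unadjusted p under 0.05 (Ldha and Pgam1), beside 6.78%, and DESeq2 called 0. The median difference was 0.08 over the members and -0.02 over all genes tested.

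Between genotypes under placebo, 23 of 32 members had a negative log2 fold change, lower in ERalphaKO, beside 47.9% of all genes. This comparison shares the WT placebo libraries with that of E2 in WT, so the 2 are set side by side and not counted together, and Slc16a3 and Bdh1 are described without a test. Slc16a3 had a log2 fold change of -0.53 ± 0.10, from 89.2 ± 7.89 to 61.8 ± 6.03 CPM (SD, n = 2 and 4). All 7 tested genes of lower glycolysis had negative values, from -0.61 to -0.02, but only 1 of 3 of hexose phosphorylation and isomerisation, 2 of 4 regulators of fructose bisphosphate and 1 of 2 glucose transporters did. In 10 members the ERalphaKO libraries lay wholly below WT, beside 10.6% of all genes, and in 1, Slc16a1, wholly above by a narrow margin, beside 10.5%. By edgeR 0 of the other 30 members were called, beside 0.0135% of all genes, and 7 had an unadjusted p under 0.05, beside 8.93%. DESeq2 called 1, Bsg, and called far more of all genes here than edgeR did, as counted in the last section. The median was -0.10 over the 32 members and 0.01 over all genes.

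Under E2, the libraries of the genotypes overlapped for Slc16a3 and did not for Bdh1. Both genes are described without a test here too, because the WT E2 libraries took part in choosing them. Slc16a3 stood at 54.2 ± 3.27 CPM in WT and 57.2 ± 4.22 CPM in ERalphaKO (SD, n = 3 each), a log2 fold change of 0.08 ± 0.10, whereas Bdh1 stood at 23.6 ± 2.39 and 33.03 ± 1.24 CPM. Slc2a3, Pdk3 and Bdh1 were higher in ERalphaKO without overlap, 3 members beside 6.97% of all genes. Pfkm and Aldoa were lower without overlap, 2 members beside 8.94%. Their log2 fold changes were -0.56 and -0.17, but 0.32 and 0.27 with the muscle level in the fit. Pfkm and Aldoa passed the edgeR test in neither fit (adjusted p = 0.768 and 0.899, and 0.720 and 0.691 with the muscle level). Skeletal muscle markers were also lower without overlap, summing to 17.99 to 65.6 CPM in ERalphaKO and 250.8 to 1289 CPM in WT. The part of muscle content in these differences was not tested. By edgeR 0 of the other 30 members were called, beside 1.10% of all genes, 2 had an unadjusted p under 0.05 (Slc2a3 and Hk1), beside 11.5%, and DESeq2 called 0. The median was -0.06 over the members and -0.0031 over all genes.

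**Figure D3:**
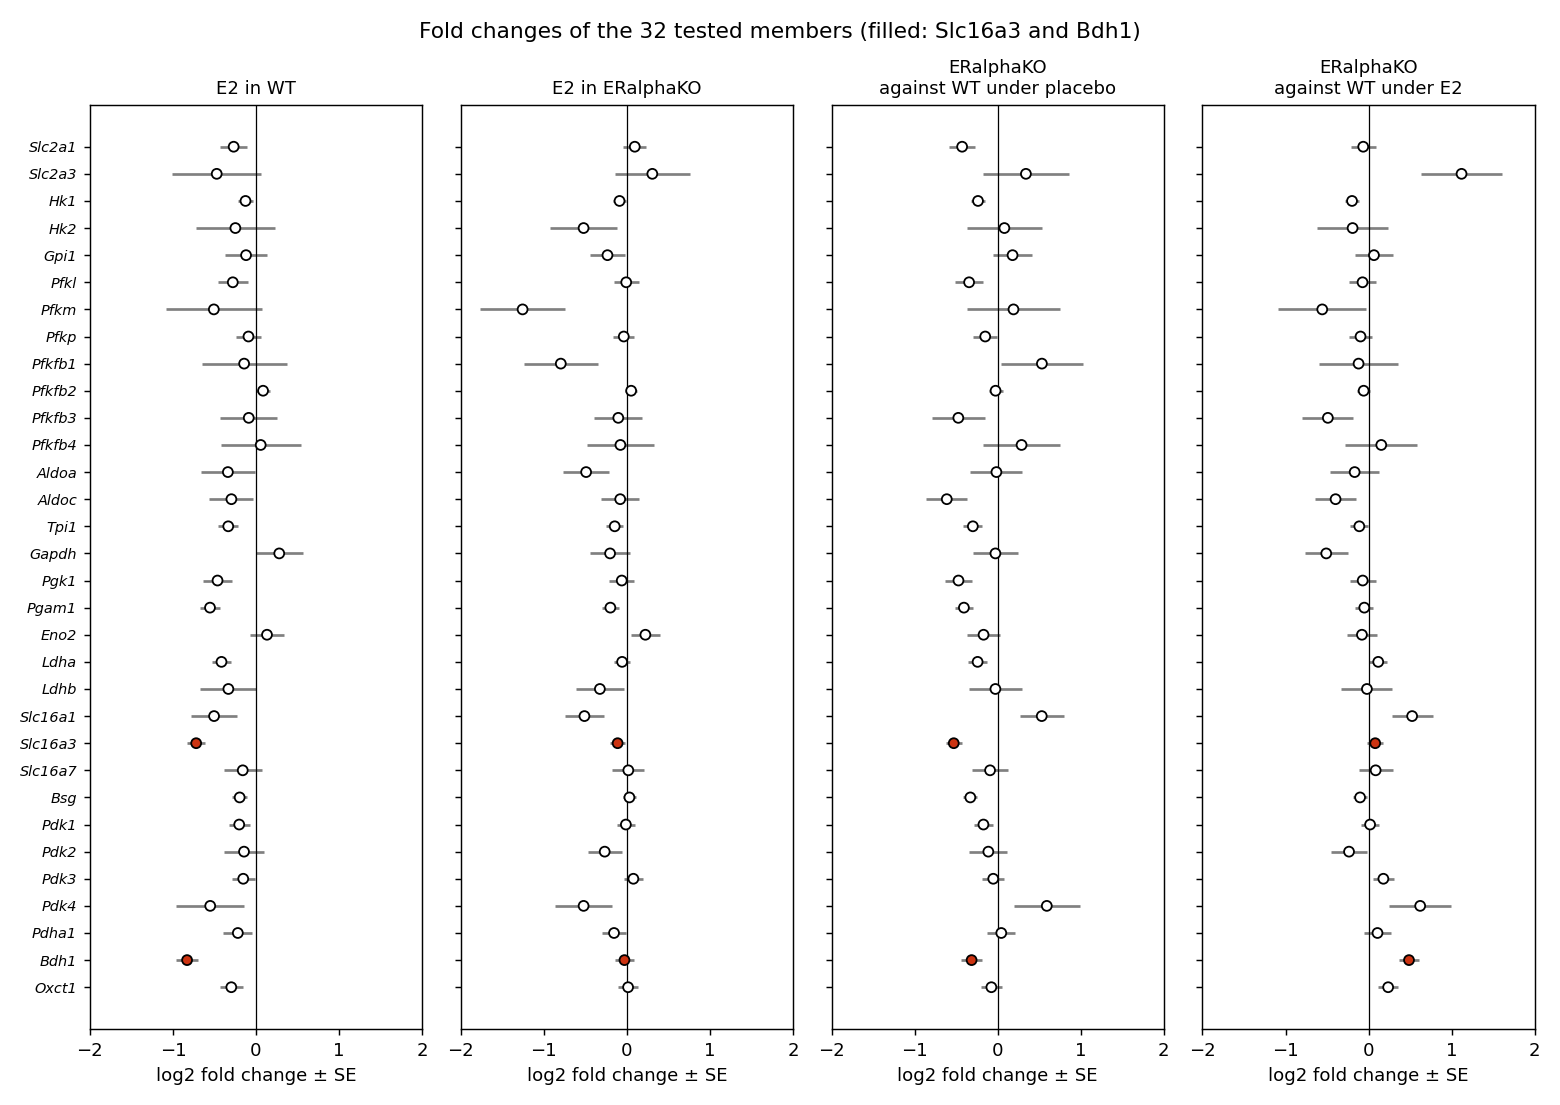
Log2 fold change with its standard error (horizontal axis) for the 32 tested members (rows, by role) in 4 comparisons (panels); filled points are Slc16a3 and Bdh1. In WT, 28 of 32 points lie below 0 with E2, and Bdh1 is at -0.83. In ERalphaKO, 24 of 32 lie below 0 with E2, and Bdh1 is at -0.03.

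Set against the other 10 libraries, both WT placebo libraries were higher in 7 of 32 members, beside 2.63% of all genes. These were Hk1, Aldoc, Pgk1, Pgam1, Slc16a3, Bsg and Bdh1. In 0 of 32 members were they both lower, beside 1.62%. Because the members were chosen from a comparison that uses these libraries, the count is a description. The group held 2 libraries, with skeletal muscle marker means at the bottom (-1.03 log2 CPM) and near the top (5.47 log2 CPM) of all 12.

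Inside the groups, 1 member was called for its slope on the muscle marker level and 2 for that on the granulocyte marker level. In a fit with 1 mean per group and the marker level as a slope, chosen after seeing the data, Pfkm rose with the muscle level by 0.26 ± 0.04 log2 units per log2 unit of the mean marker level (edgeR adjusted p = 0.00876). It was the 1 member of 32 called, beside 1.36% of all genes, all of positive slope. The call held in 11 of 12 omissions of 1 library, with slopes of 0.19 to 0.29, and was lost without ERalphaKO placebo replicate 1. Aldoa (0.13 ± 0.03, adjusted p = 0.132), Pdha1 (0.07 ± 0.02, adjusted p = 0.152) and Hk2 (0.18 ± 0.05, adjusted p = 0.169) did not pass.

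With the granulocyte level, Slc2a3 rose by 0.15 ± 0.03 (adjusted p = 0.0321) and Pfkfb4 by 0.13 ± 0.03 (adjusted p = 0.0340), 2 of 32 members beside 2.89% of all genes of positive slope. These calls held in 5 and 4 of 12 single omissions. Both were lost without either WT placebo library, ERalphaKO placebo replicates 1, 2 or 3, or ERalphaKO E2 replicates 1 or 2, and that of Pfkfb4 also without WT E2 replicate 2; the slopes stayed between 0.12 and 0.18 for Slc2a3 and between 0.10 and 0.15 for Pfkfb4. Slc16a3 had slopes of 0.03 ± 0.01 on the muscle level (adjusted p = 0.722) and 0.01 ± 0.01 on the granulocyte level (adjusted p = 0.599). With the muscle level in the fit, the log2 fold changes with E2 in WT were -0.76 ± 0.09 for Slc16a3 and -0.88 ± 0.12 for Bdh1. With the granulocyte level they were -0.69 ± 0.11 and -0.84 ± 0.14. These fold changes come from the comparison used to choose both genes, so they are a description only. Means of adipocyte markers (1.21 to 3.78 log2 CPM in WT placebo, -0.02 to 1.18 in WT with E2), macrophage markers (5.38 to 5.67, 5.76 to 6.35) and fibrous tissue markers (9.56 to 9.58, 9.14 to 9.53) did not overlap. Those of cartilage, bone cell, osteoclast, erythroid and endothelial markers did. The part of these cell types in the fold changes was not tested.

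**Figure D4:**
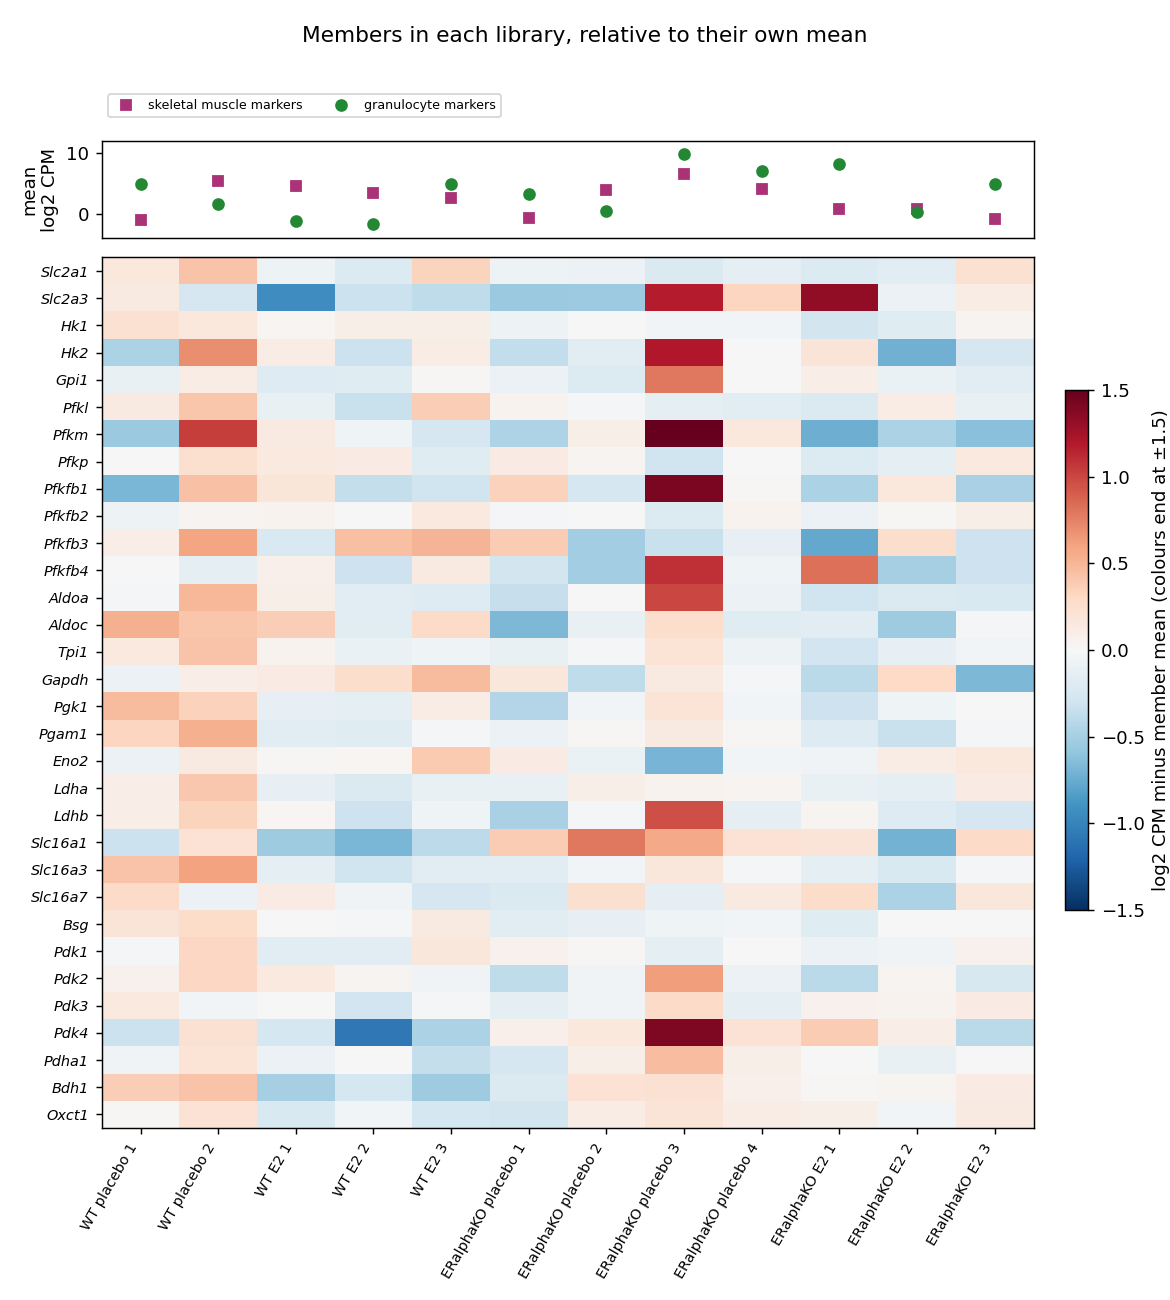
Upper panel: mean log2 CPM of the skeletal muscle and granulocyte markers in each library. Lower panel: log2 CPM of each of the 32 tested members minus its mean over the 12 libraries (colour, ending at ±1.5), with Pfkm, Aldoa and Pdk4 highest in ERalphaKO placebo replicate 3.

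**Figure D5:**
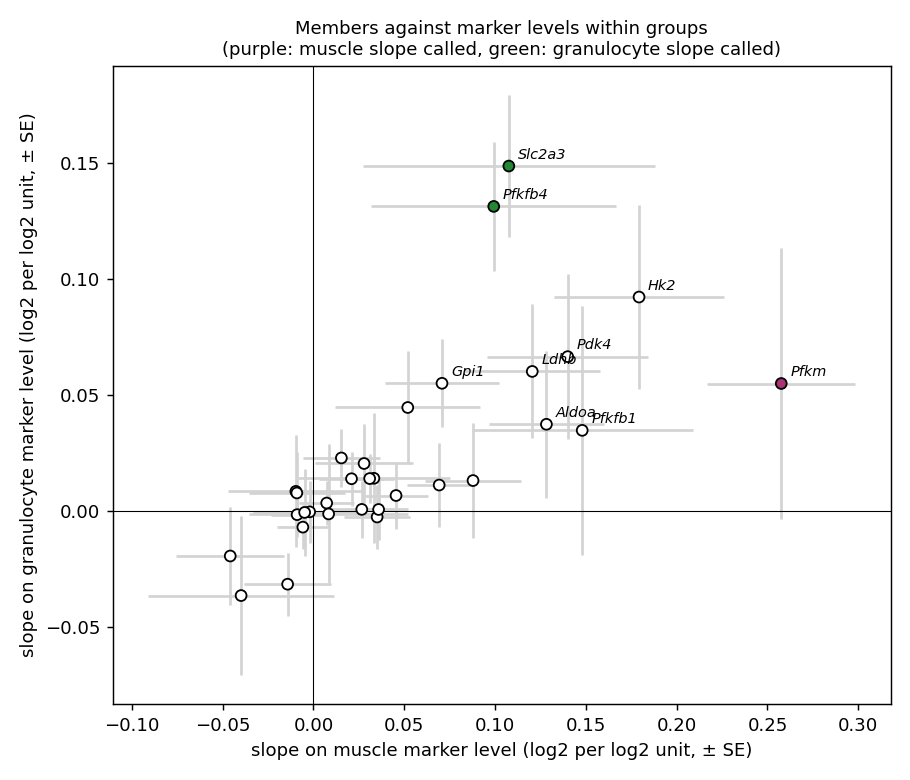
Slope of each tested member on the skeletal muscle marker level (one axis) and on the granulocyte marker level (the other axis), in log2 units per log2 unit within groups, with standard errors. Pfkm lies far along the muscle axis (0.26) and Slc2a3 (0.15) and Pfkfb4 (0.13) along the granulocyte axis.

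Other genes of the same pathways were counted from a separate list of 50, of which 43 were tested. By edgeR 0 of 43 were called in each of the 5 comparisons. DESeq2, which called more of all genes than edgeR in each comparison (counts in the last section), called 1, Pkm2, for E2 in WT. The numbers with an unadjusted edgeR p under 0.05 were 7 and 6 for E2 in WT and in ERalphaKO. They were 3 and 8 for genotype under placebo and under E2, and 5 for the difference of effects. The shares of all genes with such a p were 8.14%, 5.70%, 8.93%, 11.5% and 6.78% in that order, and those of the list 16.3%, 14.0%, 6.98%, 18.6% and 11.6%. Pkm2, as the table names the gene of pyruvate kinase M, which makes the pyruvate, had mean levels of 601.7 CPM in WT placebo, 451 in WT with E2, 491.7 in ERalphaKO placebo and 469.9 CPM in ERalphaKO with E2. Its log2 fold change was -0.42 ± 0.12 with E2 in WT (adjusted p = 0.274) and -0.29 ± 0.11 for genotype under placebo (adjusted p = 0.489). Pck1, of gluconeogenesis, had a mean of 1.25 CPM in WT placebo and 0.0167 CPM in WT with E2 (adjusted p = 0.275), the latter below the limit of detection. The list's median log2 fold change with E2 in WT was -0.11, with 30 of 43 negative.

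Genes that low oxygen induces through the hypoxia-inducible factors, as it does several members, were counted from a list of 17 outside the members, all tested. By edgeR and by DESeq2 0 of 17 were called in each of the 5 comparisons, and 2, 0, 5, 2 and 1 had an unadjusted p under 0.05 by edgeR, in the order just given. As shares of the list these were 11.8%, 0%, 29.4%, 11.8% and 5.88%, to be read against the same shares of all genes. P4ha1, a collagen prolyl hydroxylase subunit, had mean levels of 415.4 CPM in WT placebo, 318.4 in WT with E2, 328.8 in ERalphaKO placebo and 349.6 CPM in ERalphaKO with E2. Its log2 fold change was -0.38 ± 0.13 with E2 in WT (adjusted p = 0.444) and -0.34 ± 0.12 for genotype under placebo (adjusted p = 0.478). Bnip3, a mitophagy receptor, had means of 64.8, 62.0, 50.2 and 50.8 CPM in the same order of groups. It stood at -0.37 ± 0.13 for genotype under placebo (adjusted p = 0.457) and at -0.29 ± 0.12 under E2 (adjusted p = 0.403). The list's median was -0.14 with E2 in WT, with 11 of 17 negative, and 0.0017 with E2 in ERalphaKO, with 8 of 17 negative.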

How the data were processed

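Raw read counts per gene for 12 libraries were used as the authors deposited them; per the submitters' processing notes, bcl2fastq 2.17 and TopHat were used with mouse build mm9. The counting tool, its annotation, its use of strand and its treatment of reads with several matches are not given in the sources used here. Counts were scaled by the TMM method and tested with edgeR 4.0.16 (quasi-likelihood F test, R 4.3.3) on genes passing a minimum count of 10, with 1 mean per group over all 12 libraries, Benjamini-Hochberg adjustment over 14832 genes and a threshold of 0.05. Standard errors were derived from the fold change and the root of its F statistic. The procedure was run on simulated counts with planted changes, which checks the recovery of fold changes and not the calls reported here. CPM was computed from TMM-scaled totals, and CPM per kb with GENCODE M21 exon lengths. Windows were matched with bwa 0.7.19. Members and gene lists were chosen with earlier results of these data known. Fold changes with errors are given for Slc16a3, Bdh1, any called member and the 4 others with the smallest p in each comparison; values by library are given for these and for the most abundant member of each role, with Pfkfb4 added after its values were seen. In each other list, genes were named where called, or else from the 2 with the smallest p in a comparison. Alternatives were RLE size factors, DESeq2 1.42.0, no filter, a minimum count of 50, only the groups compared, a replicate block, marker covariates and leaving out each library.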

Additional observations from a re-analysis of the deposited data

Results flagged for a closer look

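In ERalphaKO placebo, the group with 4 libraries, 6 members had 1 library far from the other 3. In 5 of them it was replicate 3, the highest of all 12 libraries for skeletal muscle and granulocyte markers. In the fit of each gene on the marker level within groups, the muscle slope passed the edgeR test for Pfkm (adjusted p = 0.00876) and not for Aldoa (0.132), Hk2 (0.169), Pdk4 (0.365) or Gpi1 (0.718), and none of the 5 passed on the granulocyte level, where Gpi1 had an adjusted p of 0.197. Pfkm read 196.4 CPM there, against 42.7 to 65.7 CPM in the other 3 libraries, and Aldoa read 714.8 CPM, against 280.9 to 354.3 CPM. Hk2 read 55.7 CPM, against 18.9 to 24.2 CPM. Gpi1 read 195.0 CPM, against 97.9 to 113.3 CPM, and Pdk4 read 137.6 CPM, against 54.9 to 60.8 CPM. Eno1 read 0.0402 CPM in replicate 4, which is a single count, and 0 in the others. Chance alone places about 1 in 20 such groups past this limit, and the 5 genes share a library.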

How the results depend on the processing

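Replicate numbers are shared between groups, but over 15 pairs of same-numbered libraries the correlations of their deviations ran from -0.33 to 0.50, with 9 over 0.1: 0.21 to 0.47 for replicate 2, -0.33 to 0.50 for replicate 1 and -0.12 to 0.13 for replicate 3. Of 11 libraries, 6 correlated best with one of their own number. The labels name no shared source and not every pair exceeded 0.1, so the numbers were not taken to pair the libraries; the closer correlation of the replicate 2 libraries is a hint from the data, not the design. With the replicate block, 0 members were called for E2 in WT, where Slc16a3 stood at -0.77 and Bdh1 at -0.85. Of all genes, 18, 0, 62 and 3 were called for E2 in WT, genotype under placebo, genotype under E2 and the difference of effects, against 68, 2, 163 and 8. By muscle level 3 members were called and by granulocyte level 1. Of the 30 members other than Slc16a3 and Bdh1, DESeq2 called 2 for E2 in WT (Pgam1 and Ldha) and 1 for genotype under placebo (Bsg). It called 0 of them for genotype under E2 and 0 for the difference of effects. The list was chosen with E2 in WT in view, so the calls of Pgam1 and Ldha there are a description only. Of all genes, DESeq2 called 247, 150, 497 and 102 in the same order of comparisons, and 5 for E2 in ERalphaKO. With only the groups compared in the fit, 0 members and 7 genes were called for E2 in WT, 0 genes for genotype under placebo and 66 under E2. The muscle covariate gave 44, 1, 87 and 0 genes, the granulocyte covariate 21 for the difference of effects, and both marker levels in 1 fit gave 2 members by muscle level. Single omissions gave 0 to 2 members and 1 to 131 genes for E2 in WT, 0 members and 1 to 4 genes for genotype under placebo, 0 to 1 members and 51 to 236 genes under E2, 0 members and 0 to 31 genes for the difference of effects, and 0 members and 0 genes for E2 in ERalphaKO; by muscle level 0 to 1 members and by granulocyte level 0 to 2 were called. Bdh1 with E2 in ERalphaKO (-0.029) changed sign with the muscle covariate (0.095) and without ERalphaKO placebo replicate 2 (0.019) or 3 (0.021), with a range of -0.11 to 0.021 over single omissions; the cause was not tested. Of the other values of the named members under the alternatives, 567 kept their direction and side of the threshold, 8 passed it only under the alternative and 15 lost it. With 2 WT placebo libraries, every comparison that uses that group rests on little replication, and members at a few CPM or sharing sequence with pseudogenes are the least certain.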
